A study of Mus musculus with 12 samples.

Results

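The genes described are 10 glutathione S-transferase (GST) genes of the mouse liver, Gsta1, Gsta2, Gsta3, Gsta4, Gstm1, Gstm2, Gstm3, Gstp1, Gstt1 and Gstt3. They were taken by name from the 52636 genes of the count tables, and all 10 passed the filter on low counts that left 12453 genes to test. RNA was sequenced from the livers of 12 male C57Bl/6J mice at 16 weeks of age, with 1 library per mouse. The 6 VDD-F1 mice were born to mothers that ate a diet lacking vitamin D from before mating through pregnancy and received calcium gluconate, and the 6 VDS-F1 mice to mothers on a vitamin D sufficient diet. After delivery all mothers ate the sufficient diet, and so did all offspring after weaning. By the study's account vitamin D recovers only slowly after such a switch, so exposure before birth and in early postnatal life cannot be told apart. The study's supplement records a liver weight for 7 of the mice (the weighed mice), which were VDD4 to VDD6 together with VDS3 to VDS6. It records none for VDD1 to VDD3, VDS1 and VDS2 (the unweighed mice).

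GSTs join the tripeptide glutathione to electrophilic compounds, which makes them more soluble and ready for export from the cell. The soluble enzymes form classes named by Greek letters, and a functional enzyme is a dimer of subunits of the same class. The liver is rich in them, many Gst genes are known to be induced by foreign compounds through the receptors CAR, PXR and AhR or through the stress-responsive factor Nrf2, and some differ between male and female mice. Alpha class subunits (Gsta) also reduce lipid hydroperoxides, and Gsta4 is known for its activity toward 4-hydroxynonenal, a product of lipid peroxidation. Mu class (Gstm), pi class (Gstp) and theta class (Gstt) subunits accept other, partly overlapping sets of substrates.

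Some of these genes are so alike that reads cannot always be placed. The stretch of coding sequence shown first is where Gsta1 can be told from Gsta2 but not from its neighbour Gm3776. It covers coding bases 419 to 508 of each GENCODE M21 transcript, 90 bases, and capitals mark the bases at which Gsta2 differs from Gsta1.
Gsta1: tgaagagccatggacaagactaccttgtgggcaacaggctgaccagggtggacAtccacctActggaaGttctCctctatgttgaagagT
Gm3776: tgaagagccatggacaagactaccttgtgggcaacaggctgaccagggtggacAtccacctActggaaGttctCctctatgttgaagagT
Gsta2: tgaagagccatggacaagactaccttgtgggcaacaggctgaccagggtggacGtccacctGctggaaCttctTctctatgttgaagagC

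Over these 90 bases Gm3776 had 0 differences from Gsta1 and Gsta2 had 5. Over the whole coding sequence Gsta1 was 99.7% identical to Gm3776 and 97.6% identical to Gsta2. Of all runs of 100 bases in the annotated Gsta1 exons, 80.6% also occur in Gsta2, Gm3776 or Gm10639, against 28.4% for Gsta2. The share was 25.1% for Gstp1, whose coding sequence was 98.1% identical to Gstp2, 13.8% for Gstm3, 10.8% for Gstt3, 5.86% for Gstm1 and 0.357% for Gstm2, and 0 for Gsta3, Gsta4 and Gstt1. The counts hold only read pairs that map to 1 place, so the values of Gsta1, Gsta2 and Gstp1 rest on the parts of those genes that differ, and their division among near-identical genes is uncertain.

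The 10 genes lie in clusters on 5 chromosomes of GRCm38. Gsta4 (chr9:78182774-78209349), Gsta1 (chr9:78230656-78242684) and Gsta2 (chr9:78331018-78355788) are neighbours, while Gsta3 is at chr1:21240589-21265661. Gstm3 (chr3:107963696-107969283), Gstm2 (chr3:107981702-107986453) and Gstm1 (chr3:108012255-108017973) are in 1 row, as are Gstt3 (chr10:75774115-75781414) and Gstt1 (chr10:75783813-75798584). Gstp1 is at chr19:4035407-4037985.

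The promoters of 9 of the 10 genes were matched in RefSeq (GRCm38.p6), and those of Gsta1, Gsta2 and Gstm1 are shown because these genes moved together among the mice described below. The stretches are Gsta1 at chr9:78230419-78230655 on the plus strand, Gsta2 at chr9:78347169-78347395 on the minus strand and Gstm1 at chr3:108017974-108018223 on the minus strand, each ending before the exons at the RefSeq start site used. That of Gsta2 lies within the gene span given above, since another annotated Gsta2 transcript starts farther upstream. Capitals mark matches to TTCNNNGAA, the Stat5 consensus, and to GCGTG, the core of the xenobiotic response element bound by AhR.
Gsta1 promoter: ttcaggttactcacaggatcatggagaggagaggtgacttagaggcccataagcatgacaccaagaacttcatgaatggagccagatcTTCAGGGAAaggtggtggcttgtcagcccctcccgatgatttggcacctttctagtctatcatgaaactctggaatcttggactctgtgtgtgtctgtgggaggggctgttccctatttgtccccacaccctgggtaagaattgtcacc
Gsta2 promoter: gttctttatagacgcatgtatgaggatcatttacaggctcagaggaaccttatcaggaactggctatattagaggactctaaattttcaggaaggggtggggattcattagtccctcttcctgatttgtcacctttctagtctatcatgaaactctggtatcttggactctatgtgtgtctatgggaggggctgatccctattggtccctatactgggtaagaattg
Gstm1 promoter: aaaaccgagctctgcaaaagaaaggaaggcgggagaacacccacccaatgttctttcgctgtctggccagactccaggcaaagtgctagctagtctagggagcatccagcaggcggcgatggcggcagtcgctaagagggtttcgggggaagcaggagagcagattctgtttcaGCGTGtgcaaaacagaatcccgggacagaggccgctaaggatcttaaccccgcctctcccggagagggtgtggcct

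Both strands were searched over the whole window of 250 bases before to 50 bases after each start site. The Stat5 consensus occurred in the window of Gsta1 alone among the 9 genes, at -162, and in 8.30% of 32851 promoters of the mouse. The core GCGTG occurred in Gsta1, Gsta2, Gstm1 and Gstp1 and in 32.4% of all promoters. In Gsta1 and Gsta2 it lay nearer the start site than the stretches shown. The antioxidant response element TGACNNNGC, the sequence bound by Nrf2, occurred in Gsta3 and in 12.4% of all promoters, and the AP-1 sequence TGACTCA occurred in Gstp1, at -74, and in 5.20%. These matches describe the letters of the windows and no binding was measured.

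Each library held between 14275793 and 20815066 read pairs counted on genes, and levels are given as CPM, the counts divided by the library size in units of 1000000, after scaling by edgeR's TMM factors. Hepatocyte markers were high in every library, with the 11 listed genes summing to between 90682 and 121644 CPM. VDD2 stood apart from the other unweighed mice. Its stellate cell list of 11 genes summed to 1103 CPM against 351 to 522 in the other 4, its cholangiocyte list to 136 against 33.8 to 62.7, its Kupffer cell and macrophage list to 464 against 196 to 385, and its pericentral hepatocyte list to 3241 against 7628 to 9455. Results that rest on VDD2 are therefore given with and without it.

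Per kb of exon, Gstm1 was the most abundant of the 10 transcripts, with a median over the 12 mice of 1193 CPM per kb, followed by Gstp1 at 774, Gsta3 at 254 and Gstt1 at 123. Gstm1 was above Gstp1 in 11 of 12 mice, Gstp1 was above Gsta3 in 12 of 12 and Gsta3 was above Gstt1 in 12 of 12. Gstt1 was above the next gene, Gstm3, in 8 of 12 mice. The next 4 genes had medians of 59.2 CPM per kb for Gstm3, 42.6 for Gsta4, 37.7 for Gstm2 and 31.4 for Gsta2. The order of these 4 was not fixed, since each was above the next in 10, 7 and 7 of the 12 mice. Gstt3 at 8.46 and Gsta1 at 2.48 CPM per kb had the lowest medians. Gsta2 was above Gstt3 in 8 of 12 mice and Gstt3 was above Gsta1 in 8 of 12 mice, so these places are those of medians pooled over mice whose levels differed. Gsta1 was counted with only 2 to 233 read pairs per library.

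Summed over the 10 genes, the length-scaled level was 2853 ± 298 CPM per kb (SD, n = 7) in the weighed and 1638 ± 165 (SD, n = 5) in the unweighed mice. The lowest weighed mouse, VDS5, had 2453 CPM per kb and the highest unweighed mouse, VDD2, had 1888, so the sets did not overlap. By diet, the 6 VDD-F1 mice had a sum of 2321 ± 771 CPM per kb (SD, n = 6) and the 6 VDS-F1 mice one of 2373 ± 627 (SD, n = 6), with ranges that overlapped over nearly their whole length. Gstm1 and Gstp1 made up 48.2% ± 2.73 and 30.1% ± 3.58 of the sum in the weighed mice (SD, n = 7). No test was made on the sum.

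**Figure D1:**
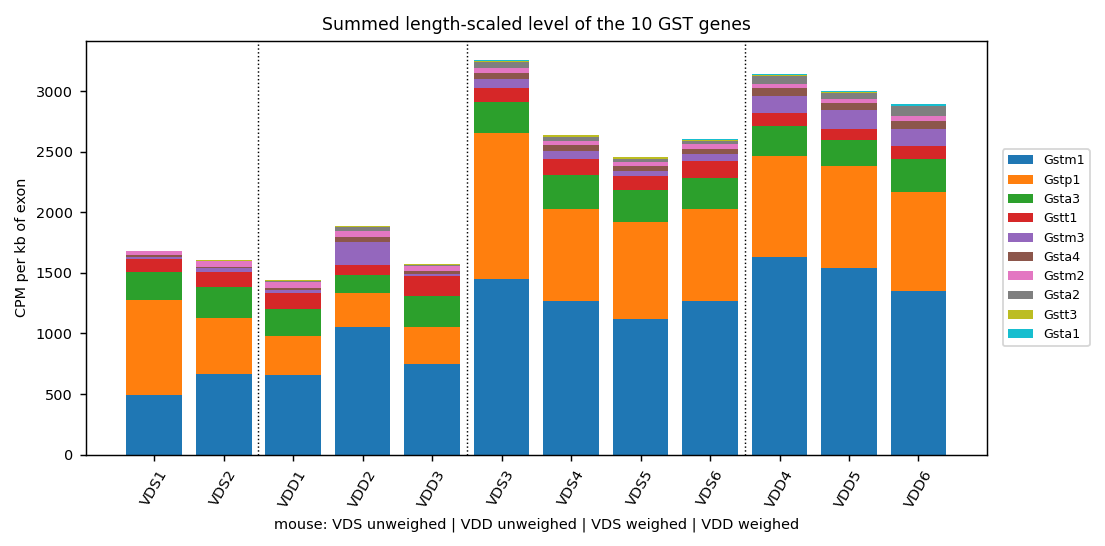
Stacked length-scaled levels (CPM per kb of exon, linear axis from 0) of the 10 GST genes in each of the 12 mice, ordered by diet and by whether a liver weight was recorded. The 7 weighed mice lie between 2453 and 3252 CPM per kb and the 5 unweighed mice between 1440 and 1888, with Gstm1 and Gstp1 filling most of each bar.

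The first comparison asks whether prenatal vitamin D deficiency changed GST transcripts in the adult liver, with all 12 mice. None of the 10 genes passed an adjusted p of 0.05 by edgeR's quasi-likelihood test (0 of 10), where 0.0402% of all genes tested did. At an unadjusted p under 0.05 there was 1 of the 10, Gstm3, against 15.8% of all genes tested. DESeq2 and limma voom also called 0 of the 10, where they called 4.05% and 4.74% of all genes tested.

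Gstm3, a mu class subunit, had 28.7, 188 and 247 CPM (lowest, median and highest) in the 6 VDD-F1 mice and 17.7, 64.3 and 88.9 CPM in the 6 VDS-F1 mice. The upper 4 VDD-F1 mice were above every VDS-F1 mouse and the lower 2, VDD1 and VDD3, were among them. The log2-fold change (VDD-F1 minus VDS-F1) was 1.37 (SE 0.50) with an edgeR adjusted p of 0.215. Gsta1 had 0.151, 5.27 and 10.9 CPM in VDD-F1 and 0.197, 1.31 and 4.01 CPM in VDS-F1 mice, a log2-fold change of 1.52 (SE 0.80, edgeR adjusted p = 0.377). Its VDD-F1 mice covered the whole range of the VDS-F1 mice and beyond. Gstt3, a theta class subunit, had 7.67, 19.1 and 35.7 CPM in VDD-F1 and 17.7, 36.6 and 46.7 CPM in VDS-F1 mice, with a log2-fold change of -0.65 (SE 0.32, edgeR adjusted p = 0.339).

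The other 7 genes had diet log2-fold changes between -0.48 for Gstp1 and 0.70 for Gsta2, with edgeR adjusted p-values from 0.483 to 0.838. The ranges of both groups overlapped for each of them. The median log2-fold change over the 10 genes was 0.18, beside 0.0041 over all genes tested. Of the other lists of glutathione, pathway and marker genes described below, Cyp1a2, an AhR target and pericentral gene, was the 1 gene called for diet in all 12 mice (log2-fold change -1.35, SE 0.20, edgeR adjusted p = 0.0269).

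**Figure D2:**
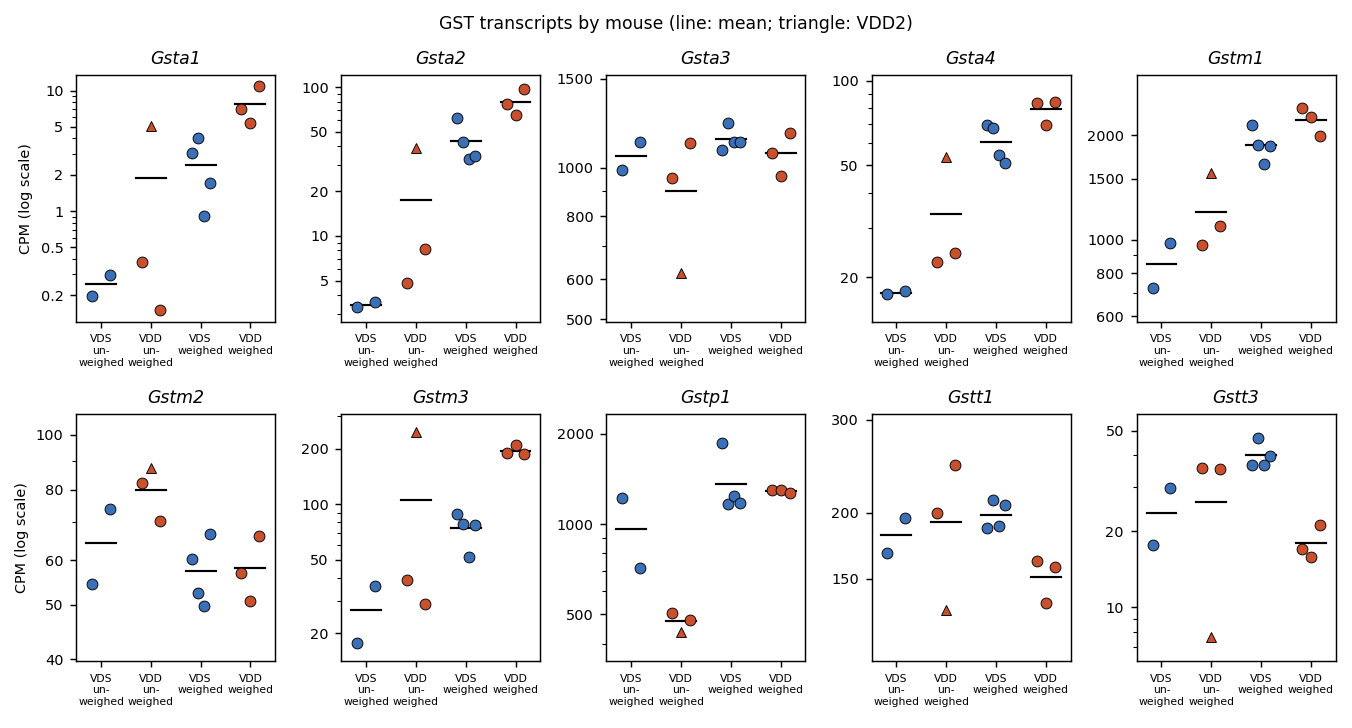
CPM of the 10 GST genes in each mouse (log axes), by diet (blue VDS-F1, red VDD-F1) and by set of mice, with a line at each mean and VDD2 as a triangle. Gsta2, Gsta4 and Gstm1 are higher in all 7 weighed mice than in VDD1, VDD3, VDS1 and VDS2, and Gstm3 and Gstt3 separate VDD-F1 from VDS-F1 among the weighed mice.

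The second comparison is between the sets of mice. With diet in the fit, 4 of the 10 genes rose in the weighed relative to the unweighed mice and 0 fell, by edgeR's quasi-likelihood test at an adjusted p under 0.05. Over all genes tested 0.899% were called higher and 1.56% lower, and 13.9% had an unadjusted p under 0.05. The 4 genes were Gsta2, Gsta4, Gstm1 and Gstp1. The median log2-fold change of the 10 genes was 0.99, beside -0.01 over all genes tested. The labels and methods used here do not say how the sets were handled, and the set cannot be told apart from anything else that was shared within it.

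Gsta2, an alpha class subunit, had 76.7, 64.7 and 97.4 CPM in VDD4 to VDD6 and 61.9, 42.9, 33.1 and 34.7 CPM in VDS3 to VDS6. In the unweighed mice it had 4.80, 39.3 and 8.21 CPM in VDD1 to VDD3 and 3.31 and 3.6 CPM in VDS1 and VDS2. VDD2 reached the lower weighed mice, and the other 4 unweighed mice were below all 7 weighed mice. The log2-fold change (weighed minus unweighed) was 2.76 (SE 0.49, edgeR adjusted p = 0.00877), which rose to 3.63 without VDD2 (adjusted p = 1.5e-06).

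Gsta4 had 83.4, 69.7 and 84.1 CPM in VDD4 to VDD6 and 69.3, 67.9, 54.2 and 51.0 CPM in VDS3 to VDS6. It had 22.6, 53.7 and 24.4 CPM in VDD1 to VDD3 and 17.4 and 17.8 CPM in VDS1 and VDS2. Again VDD2 alone of the unweighed mice fell within the weighed range. The log2-fold change was 1.48 (SE 0.21, edgeR adjusted p = 0.00228) and 1.77 without VDD2.

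Gstm1, the main mu class transcript, had 2398, 2266 and 1992 CPM in VDD4 to VDD6 and 2139, 1870, 1649 and 1866 CPM in VDS3 to VDS6. It had 964, 1553 and 1096 CPM in VDD1 to VDD3 and 723 and 978 CPM in VDS1 and VDS2. All 7 weighed mice were above all 5 unweighed mice. The log2-fold change was 1.0 (SE 0.14, edgeR adjusted p = 0.00215), a fold of 2.01.

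Gstp1, the pi class enzyme, had 1297, 1299 and 1267 CPM in VDD4 to VDD6 and 1864, 1166, 1240 and 1176 CPM in VDS3 to VDS6. It had 504, 437 and 480 CPM in VDD1 to VDD3, and 1220 and 712 CPM in VDS1 and VDS2. VDS1 lay within the weighed range and the other 4 unweighed mice below it. The log2-fold change was 0.98 (SE 0.20, edgeR adjusted p = 0.0202), and the call was lost without VDD3, VDD4, VDD5, VDD6 or VDS2, where the adjusted p was 0.0502 to 0.0606.

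Gsta1 and Gstm3 were divided by VDD2. Gsta1 had 0.379, 5.12 and 0.151 CPM in VDD1 to VDD3 and 0.197 and 0.295 CPM in VDS1 and VDS2, against 7.0, 5.42 and 10.9 CPM in VDD4 to VDD6 and 3.02, 4.01, 0.903 and 1.72 CPM in VDS3 to VDS6. Its log2-fold change between sets was 2.39 (SE 0.68, edgeR adjusted p = 0.0938) with VDD2 and 4.08 without it (adjusted p = 0.000575). Gstm3 had a log2-fold change of 1.15 (SE 0.45, edgeR adjusted p = 0.25) with VDD2 and 1.95 without it (adjusted p = 0.000626). Some settings also called these genes with VDD2 kept. With all 12 mice, limma voom called 6 of the 10, Gsta1 (log2-fold change 3.59, adjusted p = 0.0458) and Gstm3 (1.73, adjusted p = 0.00939) included, where it called 2.79% of all genes tested. DESeq2 called 5 of the 10, Gsta1 included (2.55, adjusted p = 0.0267), where it called 4.67%, and it gave no p for Gstm3. With no filter on low counts edgeR called 6 of the 10, where it called 2.24% of all genes then tested, with adjusted p-values of 0.000149 for Gsta1 and 0.003 for Gstm3. Without VDD2, edgeR with the filter called 6 of the 10 genes higher, where 3.98% of all genes tested were called in either direction. Gsta1, Gsta2, Gsta4, Gstm1 and Gstm3, 5 of the 10, were then higher in every weighed than in every unweighed mouse, against 1.42% of all genes tested.

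Gsta3, Gstm2, Gstt1 and Gstt3 did not pass the test between sets. Their log2-fold changes were 0.18 for Gsta3, -0.32 for Gstm2, -0.12 for Gstt1 and 0.05 for Gstt3, with edgeR adjusted p-values of 0.592, 0.206, 0.788 and 0.969. Gsta3 ranged from 618 CPM in VDD2 to 1224 in VDS4 and Gstm2 from 49.6 CPM in VDS5 to 87.2 in VDD2. The alpha class genes in the chromosome 9 cluster were thus higher in every weighed mouse than in every unweighed mouse but VDD2, while Gsta3 on chromosome 1 had overlapping ranges.

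**Figure D3:**
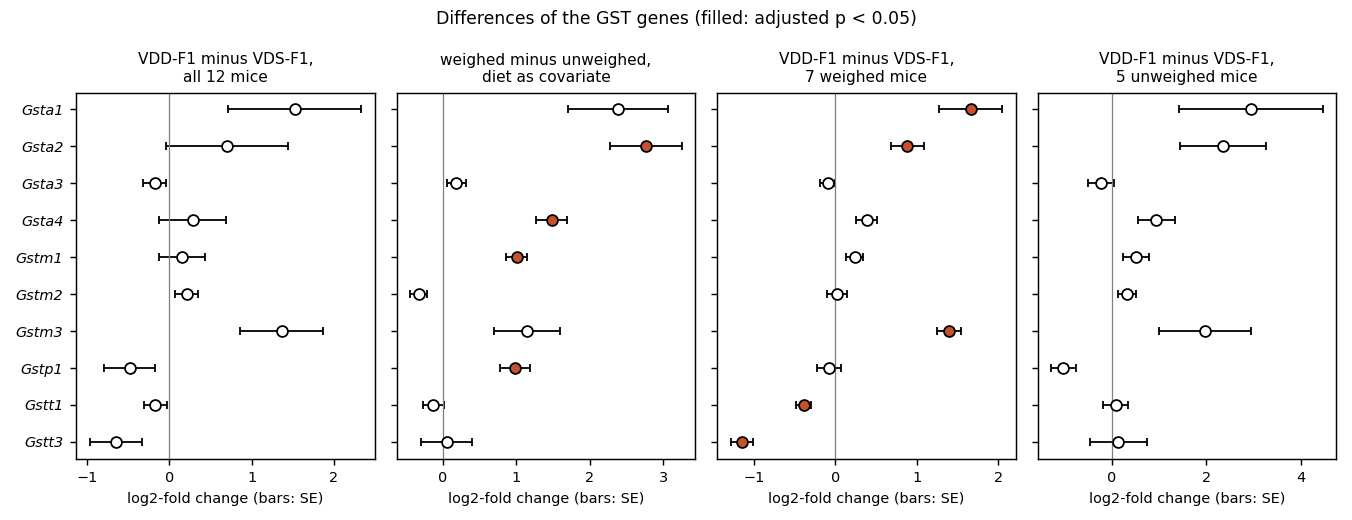
Log2-fold changes of the 10 GST genes with their standard errors (bars), from edgeR's quasi-likelihood fits of diet in all 12 mice, set with diet as covariate, diet in the 7 weighed mice and diet in the 5 unweighed mice. Filled points passed an adjusted p of 0.05, which 0, 4, 5 and 0 genes did. Each panel has its own horizontal scale.

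Among the 15 other Gst and related genes tested, 1 rose in the weighed mice, Gsto1 of the omega class (log2-fold change 0.60, SE 0.08, edgeR adjusted p = 0.0019), and 0 fell. Over all genes tested 0.899% were called higher and 1.56% lower. Summed, the other genes had 2331 to 2785 CPM in weighed and 1828 to 2678 CPM in unweighed mice, or 2449 to 2678 CPM without VDD2. In glutathione synthesis and recycling, beside the same shares, 2 of 16 genes rose and 0 fell. They were Gsr, which reduces oxidized glutathione (0.33, edgeR adjusted p = 0.0333), and Cth, which makes cysteine (0.68, edgeR adjusted p = 0.0462). Gclc and Gclm, the subunits of the enzyme that limits glutathione synthesis, had log2-fold changes of 0.26 and 0.28 and did not pass (edgeR adjusted p = 0.514 and 0.0766). Of 13 other enzymes that use glutathione and 8 exporters of conjugates, 0 were called, with 2 of each at an unadjusted p under 0.05, against 13.9% of all genes tested. Abcc3, an exporter on the blood side of hepatocytes, had 0.85 (edgeR adjusted p = 0.0599).

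Of 17 genes of the AhR, CAR and PXR pathways tested, 3 rose in the weighed mice and 1 fell, where 0.899% of all genes tested rose and 1.56% fell. Cyp2b10, the standard CAR target, rose by 3.20 (log2-fold change, SE 0.67, edgeR adjusted p = 0.0238), Cyp2c55 by 2.47 (SE 0.28, adjusted p = 0.000598) and Cyp3a11, the standard PXR target, by 2.30 (SE 0.25, adjusted p = 0.000443). Cyp2b10 was near the floor, at 0 to 1.77 CPM in the unweighed and 0.833 to 5.70 CPM in the weighed mice. It passed the filter on low counts through the weighed mice. Ahr itself fell by 0.59 (adjusted p = 0.039). The list summed to 7088 to 9366 CPM in the weighed and 2384 to 3813 CPM in the unweighed mice, with no overlap. Its median log2-fold change was 0.23. Of 26 Nrf2 pathway genes tested 3 rose, the microsomal epoxide hydrolase Ephx1 (1.30, edgeR adjusted p = 0.00194), Aox1 (1.11, adjusted p = 0.000231) and Gsr, and 2 fell, G6pdx (-1.01, adjusted p = 0.00602) and Pgd (-0.68, adjusted p = 0.026), which supply NADPH. The Nrf2 targets Nqo1, Hmox1, Srxn1 and Txnrd1 had log2-fold changes of 0.60, -0.18, -0.14 and 0.03 and did not pass. The part of either pathway in the levels of the GST genes was not tested.

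Some markers of hepatocyte position were called between the sets. Of 12 periportal genes 3 rose (Cyp2f2 0.75, Hal 0.83 and Gls2 0.75 on the log2 scale) and 0 fell, where 0.899% of all genes tested rose. The periportal list summed to 14799 to 18413 CPM in weighed and 12555 to 14830.4 in unweighed mice. Of 13 pericentral genes 3 fell (Glul -1.29, Slc13a3 -0.69 and Lect2 -0.58) and 0 rose, where 1.56% of all genes tested fell, with sums of 3587 to 10015 CPM in weighed and 3241 to 9455 CPM in unweighed mice, or 7628 to 9455 CPM without VDD2. These sums overlapped, and the low weighed sums, 3587 to 4160 CPM, were those of the 3 VDD-F1 mice. None of the cholangiocyte (7 tested), stellate cell (11), endothelial cell (10), Kupffer cell and macrophage (10) or lymphocyte (2) genes was called, and 0, 0, 4, 2 and 0 of them had an unadjusted p under 0.05, against 13.9% of all genes tested. Of the 14 male-biased genes 0 and of the 15 clock genes 0 were called (6 and 2 at an unadjusted p under 0.05). Of 19 female-biased genes listed 6 were tested and Cyp17a1 fell (-2.06), where 1.56% of all genes tested fell. Of the 11 hepatocyte genes Tdo2 rose (0.61), where 0.899% of all genes tested rose. In bulk RNA fewer cells of a type and less RNA per cell cannot be told apart, and the part of these markers in the result was not tested.

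Within the 7 weighed mice, prenatal diet separated several of the GST genes. By edgeR's quasi-likelihood test 5 of the 10 passed an adjusted p of 0.05. Gsta1, Gsta2 and Gstm3 rose in VDD-F1, 3 of the 10, where 5.85% of all genes tested rose. Gstt1 and Gstt3, 2 of the 10, fell, where 5.12% of all genes tested fell. The ranges of the 3 VDD-F1 and 4 VDS-F1 mice did not overlap for these 5 and for Gsta4, 6 of the 10, against 23.4% of all genes tested.

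Gstm3 had 189, 209 and 187 CPM in VDD4 to VDD6 and 88.9, 78.2, 51.5 and 77.1 CPM in VDS3 to VDS6. The lowest VDD-F1 value was more than the highest VDS-F1 value. The log2-fold change was 1.40 (SE 0.15), a fold of 2.63, with an edgeR adjusted p of 0.000136. Gstt3 had 17.0, 15.8 and 21.1 CPM in VDD4 to VDD6 and 36.6, 46.7, 36.6 and 39.8 CPM in VDS3 to VDS6, so that every VDD-F1 mouse was below every VDS-F1 mouse. Its log2-fold change was -1.15 (SE 0.14), a fold of 0.451, with an edgeR adjusted p of 0.000313. Both genes were past the fold threshold of 1 on the log2 scale, as was Gsta1, and both kept their call whichever mouse was left out.

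Gsta1, with the values given above, was higher in each VDD-F1 than in each VDS-F1 weighed mouse, with a log2-fold change of 1.66 (SE 0.39, edgeR adjusted p = 0.0186). Gsta2 was also higher in each, by 0.88 (SE 0.20, edgeR adjusted p = 0.0165). Both calls were lost without VDD6, the mouse with the most of either transcript, where the adjusted p was 0.0991 for Gsta1 and 0.0822 for Gsta2 and 3 of the 10 genes remained called, where 6.95% of all genes tested were. Gstt1, the other theta class gene, had 162, 135 and 158 CPM in VDD4 to VDD6 and 187, 211, 188 and 207 CPM in VDS3 to VDS6. It fell by 0.39 (log2-fold change, SE 0.09, edgeR adjusted p = 0.0194), and the call was lost without VDD5 (adjusted p = 0.0721) or VDS4 (adjusted p = 0.0575).

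Gsta4 had a log2-fold change of 0.38 (SE 0.13, edgeR adjusted p = 0.0764) and did not pass, although DESeq2 called it (adjusted p = 0.0497), as it did 13.7% of all genes tested. Gstm1 had 0.24 (SE 0.10), Gsta3 -0.09 (SE 0.09), Gstm2 0.02 (SE 0.13) and Gstp1 -0.08 (SE 0.15), with edgeR adjusted p-values of 0.175, 0.565, 0.944 and 0.786. Gstp1 was close to constant in the 3 weighed VDD-F1 mice, at 1288 ± 18.1 CPM (SD, n = 3), and spread in the weighed VDS-F1 mice, at 1361 ± 337 CPM (SD, n = 4), where VDS3 had 1864. The median log2-fold change of the 10 genes was 0.13 and that of all genes tested 0.01, with members moving both ways.

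Gm3776 and Gstp2, near relatives of Gsta1 and Gstp1, were higher in weighed VDD-F1 mice, where Gstp1 itself did not pass the test. Gm3776, whose coding sequence is nearly that of Gsta1, had 10.5, 8.36 and 9.84 CPM in VDD4 to VDD6 and 1.03, 1.40, 1.11 and 1.57 CPM in VDS3 to VDS6. Its log2-fold change was 2.89 (SE 0.21, edgeR adjusted p = 7.86e-06), and the assignment of reads between Gm3776 and Gsta1 is uncertain. Gstp2 rose by 1.81 (SE 0.40, edgeR adjusted p = 0.0128), at 1.21 to 2.40 CPM in VDD-F1 and 0.364 to 0.644 CPM in VDS-F1 weighed mice. It had 23 to 35 read pairs in weighed VDD-F1, 6 to 9 in weighed VDS-F1 and 2 to 11 in unweighed mice. With a mean of 12.7, it passed the filter on low counts through the weighed VDD-F1 mice, the group called higher. Its coding sequence is 98.1% identical to that of the far more abundant Gstp1, so the assignment of reads between them is also uncertain. Gm3776 and Gstp2 were the 2 of 15 other Gst genes called, where 5.85% of all genes tested rose and 5.12% fell. Gstt2, another theta class gene, had -0.54 (SE 0.18, edgeR adjusted p = 0.0724).

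For the glutathione and pathway lists in the weighed mice, the counts stand beside 5.85% of all genes tested that rose and 5.12% that fell in VDD-F1. Of 16 genes of glutathione synthesis and recycling 2 rose, Cbs (0.51, edgeR adjusted p = 0.00522) and the dipeptidase Dpep1 (2.33, adjusted p = 0.0163). Of 13 glutathione-using enzymes Gpx3 rose (1.81, adjusted p = 0.00478) and Glrx5 fell (-0.39, adjusted p = 0.0329), shares near those of all genes. Of 8 exporters Abcc4 rose (1.57, adjusted p = 0.00188) and Abcc3 (-0.56, adjusted p = 0.00615) and Abcc6 (-0.38, adjusted p = 0.0156) fell. Of 17 AhR, CAR and PXR pathway genes 4 rose and 4 fell. Cyp1b1 (2.78), Cyp2b10 (1.59), Cyp2c55 (1.15) and Ugt1a9 (1.46) rose, and Nr1i3, which encodes CAR (-1.68), Rxra (-0.39), Cyp1a2, the standard hepatic AhR target (-1.48), and Ugt1a1 (-0.93) fell, with edgeR adjusted p-values from 1.51e-06 to 0.0238. Of 26 Nrf2 pathway genes Prdx1 rose (0.32, adjusted p = 0.0382) and Tkt (-0.43, adjusted p = 0.0318) and Ces1g (-0.49, adjusted p = 0.0337) fell, also near the shares of all genes.

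Lists of liver sex bias, zonation, cell types and the clock were counted in the same way between the weighed VDD-F1 and VDS-F1 mice, where 5.85% of all genes tested rose and 5.12% fell. Of 14 male-biased genes 6 fell, among them Mup7 (log2-fold change -5.37) and Hsd3b5 (-2.03), and 1 rose, Mup20 (0.77). Their sums were 3847 to 4447 CPM in VDD-F1 and 5219 to 6529 CPM in VDS-F1. Of 19 female-biased genes listed only 6 passed the filter on low counts, and 3 of these rose, Cyp2a4 (7.09), Cyp17a1 (1.89) and Abcd2 (1.37). The filter used the mean over all 12 mice, so a gene high in 1 group alone could pass it. The female-biased list had sums of 99.7 to 113 CPM in VDD-F1 and 36.2 to 64.4 CPM in VDS-F1. Of 13 pericentral genes 9 fell, Glul (-1.73) and Cyp2c37 (-2.99) among them, with sums of 3587 to 4160 and 7964 to 10015 CPM, and of 12 periportal genes 4 rose, with sums of 15999.5 to 18413 and 14799 to 16358 CPM. Of 11 stellate cell genes 6 rose, Col1a1 (2.67) among them, with sums of 571 to 681 and 327 to 411 CPM, and of 7 cholangiocyte genes 2 rose, with sums of 74.0 to 85.6 and 42.2 to 56.2 CPM. Of 10 Kupffer cell and macrophage genes 2 rose and 4 fell, with sums of 182 to 238 and 231 to 300.3 CPM, and of 10 endothelial genes 1 fell, Stab2, with sums of 405 to 455 and 434 to 483 CPM, and the sums of both lists overlapped between the diets. Of 15 clock genes 7 fell, Dbp (-3.64) among them, with sums of 345 to 427 and 440 to 802 CPM. Of the 11 hepatocyte genes 3 rose and 2 fell, with sums of 109341 to 115643 CPM in VDD-F1 and 90682 to 100315 CPM in VDS-F1 mice, which did not overlap, and of the 2 lymphocyte genes tested 0 were called (1 at an unadjusted p under 0.05, as had 25.5% of all genes tested). The part of these lists in the GST differences was not tested.

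Within the 5 unweighed mice, edgeR called 0 of the 10 genes and 0 genes in all. At an unadjusted p under 0.05 there were 3 of the 10, Gsta2, Gsta4 and Gstp1, against 3.79% of all genes tested, and DESeq2 at an adjusted p under 0.05 called 1 of the 10, Gstp1, where it called 0.273% of all genes tested. Gstp1 was lower in each of the 3 VDD-F1 mice (437 to 504 CPM) than in both VDS-F1 mice (712 and 1220 CPM), with a log2-fold change of -1.03 (SE 0.26, edgeR adjusted p = 0.999). The value was -0.98 without VDD2, -0.57 without VDS1 and -1.36 without VDS2. Gsta2 had a log2-fold change of 2.35 (SE 0.91) with VDD2 and 0.90 (SE 0.35) without it, and Gsta4 had 0.94 (SE 0.39) and 0.41 (SE 0.18), with edgeR adjusted p-values of 0.778 or more. The direction of both held in each case. Gsta1 had a log2-fold change of 2.94 with VDD2 and 0.14 without it, Gstm3 1.98 and 0.34, and Gstt3 0.14 and 0.58.

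Whether the diet difference itself differed between the sets was tested with an interaction term. By edgeR 0 of the 10 genes passed, where 0.0883% of all genes tested did. DESeq2 and limma voom also called 0 of the 10, where they called 1.11% and 0.498% of all genes tested, and DESeq2 gave no p for Gstm3. With no filter on low counts edgeR called 3 of the 10, Gsta2, Gstp1 and Gstt3, where 1.49% of all genes then tested were called. At an unadjusted p under 0.05 there was 1, Gstp1 (interaction 0.95 on the log2 scale, SE 0.30, edgeR adjusted p = 0.338), against 9.01% of all genes tested. Without VDS1 this interaction was 0.51 (SE 0.29, edgeR adjusted p = 0.859). Without VDD2, Gstt3 passed, with an interaction of -1.73 (SE 0.28, edgeR adjusted p = 0.00506), the diet difference being lower in the weighed mice, where 2.68% of all genes tested passed. VDD2 had the lowest Gstt3 level of the 12 mice, 7.67 CPM, where VDD1 and VDD3 had 35.7 and 35.2 CPM. With all 12 mice the interaction for Gstt3 was -1.29 (SE 0.60, edgeR adjusted p = 0.556).

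**Figure D4:**
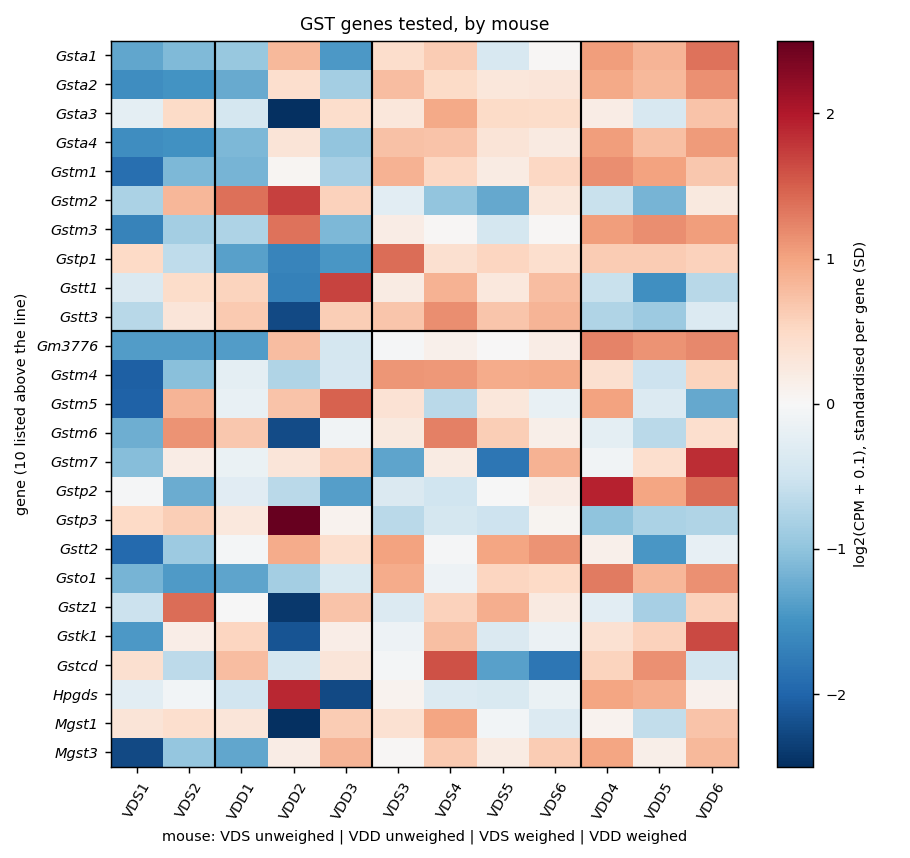
Log2(CPM + 0.1) of the 25 tested GST genes, standardised per gene over the 12 mice (colour, in SD), with the 10 described genes above the line and mice in columns by set and diet. Gsta1, Gsta2, Gsta4, Gstm1 and Gstm3 are low in VDS1, VDS2, VDD1 and VDD3 and higher in VDD2 and the weighed mice, while Gsta3, Gstt1, Gstt3, Gstz1 and Mgst1 are low in VDD2.

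The gene outside the GST lists whose profile was nearest to each of the 10, by the root mean square difference of standardised log2 CPM over the 12 mice, was Ephx1 for both Gstm1 (0.184 SD) and Gsta2 (0.282 SD). It was Cyp2b10 for Gsta1 (0.275 SD), Cryl1 for Gsta4 (0.235 SD), Rnf10 for Gstt3 (0.242 SD) and Acads, a fatty acid oxidation enzyme, for Gstt1 (0.264 SD). The nearest to Gstp1 was its pseudogene Gstp-ps (0.311 SD), which shares sequence with it. Gstm3, Gsta3 and Gstm2 were nearest to D6Wsu163e (0.312 SD), D130020L05Rik (0.323 SD) and Slc39a3 (0.444 SD). Ephx1 had 533 to 734 CPM in VDD4 to VDD6, 515 to 669 in VDS3 to VDS6, 224, 408 and 309 in VDD1 to VDD3, and 165 and 196 CPM in VDS1 and VDS2, so that VDD2 was the highest unweighed mouse for Ephx1 as for Gstm1. These are descriptions over 12 mice that share their sets and diets.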

How the data were processed

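Liver RNA of 12 mice (6 VDD-F1, 6 VDS-F1) was sequenced by the authors from ribosomal RNA-depleted, strand-specific libraries, and the reads were aligned with STAR to GRCm38 (mm10). The deposited values are raw counts of read pairs per gene for 52636 genes, without normalization, 1 library per mouse. Only uniquely mapped pairs are counted. The reverse-strand counts, 92.7% to 95.8% of the stranded counts, were used. Symbols, positions and exon lengths came from GENCODE M21, where the authors used an earlier release, and 52489 genes matched. Unmapped, multimapping, ambiguous and unassigned pairs, listed beside the genes, were left out of library sizes; multimapping pairs were 6.69% to 8.92% and pairs outside genes 2.52% to 11.1% of all pairs.

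Genes whose mean count reached 12 were tested in edgeR 4.0.16 (R 4.3.3; TMM, quasi-likelihood F test in its legacy form) with Benjamini-Hochberg adjustment over all 12453 genes at 0.05. The study's fold threshold was a log2-fold change of 1. The fits were diet in all mice, set with diet as covariate, diet by set, and diet within each set. SE is the fold change divided by the root of F. CPM uses TMM-scaled library sizes, and CPM per kb divides by exon length. Alternatives were DESeq2 1.42.0, voom with quality weights (limma 3.58.1), DESeq2 size factors, the newer edgeR form, other filters, unstranded counts, each mouse left out, set as covariate and a replicate block. The edgeR fits of diet, set and diet within the weighed mice were tested on simulated data. No library was a duplicate of another (the counts of the nearest pair differed with a chi-square per degree of freedom of 92.0). P-values measure the spread between mice. The diet was given to the mothers, and the labels name no dam or litter, so mice were treated as independent. A difference between litters cannot be told apart from a diet difference.

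The 10 genes and the 17 lists beside them were chosen with earlier results of these data known. All 10 are named; from each other list, genes at an adjusted p under 0.05 are named, or at most 3 with the smallest p, with some called genes given as counts, and the pathway genes Gclc, Gclm, Nqo1, Hmox1, Srxn1, Txnrd1, Abcc3 and Gstt2 were added after their values were seen. The nearest gene was taken by the smallest root mean square difference. The sets of mice come from the liver weights in the study's supplement. Promoter windows are RefSeq's and coding sequences GENCODE's. Histology, cell proportions and qRT-PCR were not analysed here.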

Additional observations from a re-analysis of the deposited data

Results flagged for a closer look

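Reads on the strand opposite to the 10 GST genes were not used in any comparison. Over the 12 libraries they came to 2018 counts, 0.237% of the counts on both strands of these genes, where the share over all genes was 4.94%. They are listed because they were left unused, and no test was made on them. In 22 tests for an outlying mouse within its group, 0 passed the 95% level.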

How the results depend on the processing

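Counts of called genes among the 10 changed with several settings. The diet difference had 0 called in all 12 mice, where 0.0402% of all genes tested were called. It had 5 in the weighed mice alone, where 5.85% of all genes tested rose and 5.12% fell. The diet by set interaction had 0, but 3 with no filter on low counts (Gsta2, Gstp1 and Gstt3), where 1.49% of all genes then tested were called. It had 0 to 1 when each mouse was left out (Gstt3 without VDD2, where 2.68% of all genes tested were called). The diet difference within weighed mice had 5, and 3 to 5 with a mouse left out, lowest without VDD6, where 6.95% of all genes tested were called. The diet difference within unweighed mice had 0, and 1 with DESeq2, where it called 0.273% of all genes tested. The set difference had 4, and 3 to 6 with a mouse left out, 5 with DESeq2 (Gsta1 added), and 6 with voom or no filter (Gsta1 and Gstm3 added). Of all genes then tested, 4.67% were called with DESeq2, 2.79% with voom and 2.24% with no filter. The number of all genes called for diet in 12 mice was 5 with edgeR, 504 with DESeq2, 590 with voom and 85 with no filter, and without a mouse 0 to 420.

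Some values turned sign, none of them called. With voom the interaction was 0.95 for Gsta1, -0.0013 for Gsta3 and 0.63 for Gstm3, where edgeR gave -1.30, 0.14 and -0.58. In the unweighed mice alone the diet difference was 0.082 for Gstt1 and 0.14 for Gstt3, where all 12 mice gave -0.17 and -0.65. With a mouse left out, the set difference was -0.22 to 0.27 for Gstt3 and -0.22 to 0.0025 for Gstt1. The interaction was -1.85 to 1.5 for Gsta1, -0.066 to 0.31 for Gsta3 and -1.17 to 1.06 for Gstm3, and turned sign for these genes without VDD2. Within weighed mice the diet difference was -0.089 to 0.093 for Gstm2 and -0.16 to 0.11 for Gstp1, and within unweighed mice -0.18 to 0.58 for Gstt3 and -0.12 to 0.29 for Gstt1. Of all values, those that turned included, 451 of 480 with a mouse left out and 270 of 290 under other settings kept direction and side of the threshold, and 17 and 5 turned sign; the cause of the changes was not tested.

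Replicate numbers name different mice in each diet group. Deviations of same-numbered mice correlated at -0.076 to 0.103, so the numbers were not taken as pairs, and with a replicate block 0 of the 10 genes were called for diet. With 2 unweighed VDS-F1 mice and few Gsta1 counts per library, differences in the unweighed set could be missed at this depth.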
